A study of Mus musculus with 4 samples.

Results

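The endoplasmic reticulum (ER) is the compartment in which secreted and membrane proteins are made, folded and checked, and the 38 genes described here encode its stress sensors, its chaperones and folding enzymes, its degradation machinery, its protein entry channel and the coat that carries cargo out of it. Members were the rows of the deposited liver table named by a listed symbol, with rows of the same symbol summed. Of the 38 listed genes, 35 had a row of their own among 22849 symbols, and 34 of these passed the filter of a mean of at least 1 FPKM (fragments scaled by transcript length and library size), as did 10786 symbols in all. Sec61g did not pass. Sdf2l1, Pdia4 and Calr stood only in rows that also name another gene, and those rows are given separately.

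The 4 libraries were made from whole liver of C57BL/6 males (a common inbred mouse strain) kept for 12 weeks on high fat food with 60% fat. For 2 of them, vehicle 1 and 2, the food was without UAB126, and for the other two, UAB126 1 and 2, each kg held 1.2 g of UAB126. The compound is known here only by this code, and the sources used here do not give the age of the mice. Nothing in the labels says that the 2 libraries of a group came from separate animals, so a p-value reflects only how far these samples differ, part of which may be technical. Values below are in the order vehicle 1, vehicle 2, then UAB126 1, UAB126 2, and a log2 difference is UAB126 minus vehicle on the log2(FPKM + 1) scale with limma's moderated standard error (SE, n = 2 per group).

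As background, proteins that misfold in the ER release the chaperone BiP (the product of Hspa5) from 3 membrane sensors. IRE1 (Ern1) splices the Xbp1 messenger into the form that encodes an active transcription factor, ATF6 is cut to release another, and PERK (Eif2ak3) phosphorylates a translation factor, which favours synthesis of ATF4. XBP1 and ATF6 act on genes for chaperones, degradation and secretion, whereas ATF4 acts mainly on amino acid synthesis and stress genes. Hepatocytes secrete most plasma proteins and depend heavily on this machinery. The deposited values are totals per gene, so the spliced and unspliced forms of Xbp1 were not told apart.

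The messenger of the transcription factor Xbp1 was 2.19 times as high in vehicle as with UAB126, that of the degradation factor Derl3 was 4.16 times as high, and the 3 sensor genes Ern1, Eif2ak3 and Atf6 were higher in both UAB126 libraries. The 4 genes of disulfide formation and 6 of 8 chaperone genes were lower in both UAB126 libraries, 2 of those chaperones by less than 0.2 on the log2 scale, and Herpud1 was higher in both. Quantile normalization gives all libraries 1 distribution of values. After it, 1 of the 4 and 1 of the 8 were lower in both, beside 22.9% of all tested genes. None of the 34 tested members passed the threshold (limma, adjusted p under 0.05), beside 15 of 10786 genes (0.139%), of which 5 were higher (0.0464%) and 10 lower (0.0927%). The lowest adjusted p of a member was 0.0694, for Derl3. At an unadjusted p under 0.05, 5 members were lower (Derl3, Xbp1, Derl2, Creld2 and Ero1lb) and 1 was higher (Ern1), beside 8.38% and 5.03% of all tested genes. Both UAB126 libraries lay below both vehicle libraries in 17 of 34 members, beside 26.9% of all tested genes, and above them in 7, beside 22.7%. The median log2 difference was -0.189 over the members and -0.025 over all tested genes. The members were spread unevenly: 10 of 34 differed by less than 0.2 on the log2 scale and 3 by more than 1. In 12 of 34 the vehicle libraries stood further apart than the group means did, and in 8 the UAB126 libraries did.

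**Figure D1:**
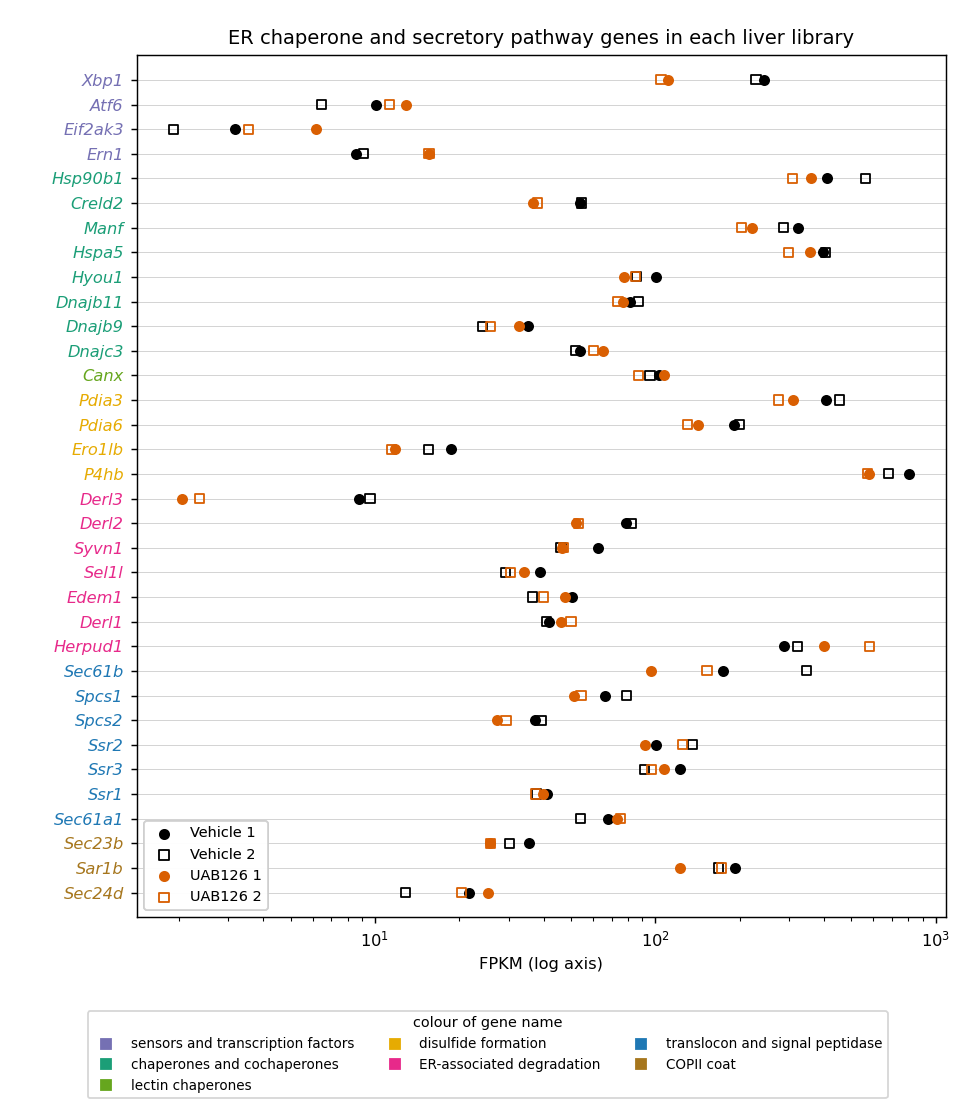
FPKM (log axis) of the 34 tested members in each of the 4 libraries, grouped by role (colour of the gene name); black is vehicle, orange UAB126, filled circles replicate 1 and open squares replicate 2. In Xbp1 and Derl3 the orange and black pairs are far apart, while in Ssr3 and Canx they intermingle.

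Promoters of several members hold the ER stress response element (ERSE), a composite site bound by NF-Y at its first part and by ATF6 or XBP1 at its last, and the sites are shown to describe these promoters. Genes are often assigned to this branch because of such sites, so their share among the members is not independent of the choice of the list. Promoter windows from RefSeq (GRCm38.p6, the assembly also called mm10; 250 bases before to 50 after a start site) matched 32 of the 38 listed genes, Ero1lb under its newer symbol Ero1b; none matched for Atf6, Derl1, Hyou1, Manf, Sec61a1 and Ssr2. Exact letters were searched on both strands, so sites that differ in a fixed letter or in spacing were not counted. ERSE, spelled CCAAT, then 9 bases of any kind, then CCACG, was found in 10 of the 32 members (31.2%) and in 39 of 32851 windows of all genes (0.119%). ERSE-II, spelled ATTGG, then 1 base of any kind, then CCACG, which shares the CCACG end and holds the CCAAT start on the other strand, was in 2 members (6.25%) and in 0.0365% of all windows. UPRE, spelled TGACGTGG, which holds the last letters of ERSE on the other strand, was in Sec24d alone (0.676% of all windows). The ATF4 type element (CARE), spelled TGATGNAA, was in Herpud1 alone (3.97% of all windows). The ERSE sites, read 5′ to 3′ on the strand of the motif with its fixed letters in capitals, were these, with ERSE-II sites last.
Hspa5: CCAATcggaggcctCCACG
Hsp90b1, upstream site: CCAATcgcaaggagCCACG
Hsp90b1, downstream site: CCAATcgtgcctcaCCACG
Dnajc3: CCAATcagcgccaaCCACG
Creld2: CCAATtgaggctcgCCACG
Calr: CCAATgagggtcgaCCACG
Canx: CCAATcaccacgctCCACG
Pdia6: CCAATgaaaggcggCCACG
Ero1lb: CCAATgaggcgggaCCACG
Syvn1: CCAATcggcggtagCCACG
Derl3: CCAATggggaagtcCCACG
Herpud1, ERSE-II: ATTGGgCCACG
Dnajb11, ERSE-II: ATTGGcCCACG
Of the 9 tested members with ERSE, 6 were lower in both UAB126 libraries, 1 (Dnajc3) was higher in both and 2 (Canx and Syvn1) overlapped, with log2 differences from -1.67 to 0.23, beside 26.9% lower and 22.7% higher among all tested genes. Of 16 tested members whose windows held none of the 4 motifs, 8 were lower in both, 2 higher and 6 overlapped, with log2 differences from -1.12 to 0.75. After quantile normalization, Creld2, Ero1lb and Derl3, with ERSE, stayed lower in both, while Hspa5, Hsp90b1 and Pdia6 overlapped. Of the 8 without motifs, P4hb, Pdia3 and Sec23b then overlapped. A match of letters is a description of the window and not evidence of binding.

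The 250 bases before the start are printed for 3 members. These are Derl3, with the most negative difference, Herpud1, which went the other way, and Hspa5, the standard reporter of this response. All 3 lie on the plus strand, at chr10:75893148-75893397, chr8:94386179-94386428 and chr2:34771840-34772089. Capitals mark the fixed letters of the motifs above, on whichever strand they lie.
Derl3: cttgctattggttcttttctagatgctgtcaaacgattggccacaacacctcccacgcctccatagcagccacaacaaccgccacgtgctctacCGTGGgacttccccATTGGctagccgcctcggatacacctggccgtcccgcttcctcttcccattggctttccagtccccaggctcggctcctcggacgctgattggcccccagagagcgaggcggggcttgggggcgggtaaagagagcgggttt
Herpud1: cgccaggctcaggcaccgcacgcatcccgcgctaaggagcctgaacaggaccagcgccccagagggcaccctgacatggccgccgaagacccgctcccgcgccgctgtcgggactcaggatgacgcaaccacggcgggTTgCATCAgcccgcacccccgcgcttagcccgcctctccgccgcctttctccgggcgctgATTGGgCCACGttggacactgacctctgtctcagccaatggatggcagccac
Hspa5: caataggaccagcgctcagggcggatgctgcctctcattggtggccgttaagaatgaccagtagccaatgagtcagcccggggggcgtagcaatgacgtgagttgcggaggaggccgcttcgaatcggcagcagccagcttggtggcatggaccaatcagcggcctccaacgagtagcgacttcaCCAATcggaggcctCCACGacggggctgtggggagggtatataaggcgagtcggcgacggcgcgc
Distances are from the RefSeq starts, which for all 3 differ from the gene starts given below. The ERSE of Derl3, on the minus strand, lay from 156 to 138 bases before its start and that of Hspa5 from 65 to 47 bases before. In Herpud1 the CARE letters, also on the minus strand, lay from 112 to 105 bases before the start and the ERSE-II letters from 52 to 42 bases before, whereas the ERSE-II letters of Dnajb11 lay just after its start.

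Among the sensors and transcription factors, Xbp1 was at 245 and 229 against 111 and 105 FPKM. The 2 libraries of each group nearly coincided and the groups were well apart, with no UAB126 value near a vehicle value. The log2 difference was -1.12 ± 0.21 (limma adjusted p = 0.199), and it ran from -1.17 to -1.08 when any 1 library was left out. The gene lies on chromosome 11 at 5520659 to 5525893, plus strand, and no other annotated gene overlaps it.

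Ern1, which encodes the kinase and nuclease IRE1 that splices Xbp1, was at 8.58 and 9.11 FPKM against 15.6 in each UAB126 library. Both UAB126 libraries were above both vehicle libraries, by 1.76 times in the means, the reverse of Xbp1. Its log2 difference was 0.75 ± 0.17 (limma adjusted p = 0.234), and its position is chromosome 11, 106394650 to 106487852, minus strand. Eif2ak3, the gene of PERK (chromosome 6, 70844515 to 70905245), was at 3.18 and 1.91 against 6.16 and 3.55 FPKM. Its groups did not overlap, but the lower UAB126 library was close to the higher vehicle library, and the log2 difference of 0.71 ± 0.31 did not pass (limma adjusted p = 0.395). Leaving out 1 library moved it from 0.38 (without UAB126 1) and 0.45 (without vehicle 2) to 0.97 (without vehicle 1) and 1.04 (without UAB126 2). Atf6 (chromosome 1, 170704674 to 170867771) was at 10.1 and 6.45 against 12.9 and 11.2 FPKM. The groups did not overlap, and the difference of 0.52 ± 0.25 on the log2 scale (limma adjusted p = 0.415) was 0.24 without vehicle 2 and 0.81 without vehicle 1. With the trend with transcript length removed, Ern1, Eif2ak3 and Atf6 were at 0.65, 0.66 and 0.41.

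Among chaperones, Hspa5 (BiP, the main ER chaperone; chromosome 2, 34771970 to 34777547) was at 396 and 406 against 356 and 299.5 FPKM. The groups did not overlap, but the UAB126 libraries stood further apart than the nearest values of the 2 groups did, and the log2 difference of -0.30 ± 0.24 did not pass (limma adjusted p = 0.578). It was 0.07 after quantile normalization. Hsp90b1, the ER member of the HSP90 family, was at 412 and 563 against 359 and 309 FPKM. Manf, a small secreted ER protein, was at 323 and 286 against 221 and 203 FPKM (log2 difference -0.52 ± 0.23, limma adjusted p = 0.397). In both, each UAB126 library was below each vehicle library, and the annotated models of both overlap other genes.

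Creld2, an ER stress-inducible protein with isomerase activity, had nearly identical values within each group, at 53.9 and 54.6 against 36.7 and 37.9 FPKM. Its log2 difference was -0.53 ± 0.19 (limma adjusted p = 0.337), and -0.22 once the trend with transcript length was removed. Hyou1, a large chaperone of the HSP70 family, and Dnajb11, a BiP cochaperone, were also lower in both UAB126 libraries, at 100.3 and 86.0 against 77.6 and 85.3 FPKM and at 81.4 and 87.3 against 76.9 and 73.6 FPKM, with log2 differences of -0.19 and -0.16. Dnajb11 had a row of its own, and a further row named jointly for Ahsg and Dnajb11 was not counted for it. Dnajb9, a cochaperone that represses IRE1 and is a standard XBP1 target, was at 35.2 and 24.3 against 32.8 and 25.8 FPKM, with overlapping groups and a log2 difference of -0.01 ± 0.26. Dnajc3, a cochaperone that also inhibits PERK, was the chaperone gene higher in both UAB126 libraries, at 53.9 and 52.1 against 64.9 and 60.2 FPKM (log2 difference 0.23 ± 0.19, limma adjusted p = 0.583). Canx, the membrane lectin chaperone calnexin, was at 103 and 95.8 against 107 and 87.2 FPKM, with the vehicle values inside the range of the UAB126 values.

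The genes of disulfide formation were lower in both UAB126 libraries in 4 of 4 tested members, beside 26.9% of all tested genes, with a median log2 difference of -0.518. By level, that share of all tested genes was 52.6% at 300 FPKM or more, where P4hb and Pdia3 lie. It was 47.4% from 100 to 300 FPKM (Pdia6) and 28.3% from 10 to 30 FPKM (Ero1lb). None of the 4 members passed the threshold. P4hb, the classical protein disulfide isomerase, was the most abundant member, at 804 and 681 against 579.6 and 570.1 FPKM. Pdia3, the isomerase that works with calnexin and calreticulin, was at 407 and 453 against 311 and 275.3 FPKM (log2 difference -0.55 ± 0.24, limma adjusted p = 0.390). Pdia6 was at 191 and 200.4 against 142 and 131 FPKM (log2 difference -0.52 ± 0.21, limma adjusted p = 0.380). Ero1lb, an oxidase that recharges these isomerases, was at 18.8 and 15.5 against 11.8 and 11.5 FPKM (log2 difference -0.51 ± 0.19, limma adjusted p = 0.344). After quantile normalization the differences of P4hb, Pdia3 and Pdia6 moved to 0.07, -0.16 and -0.14, and that of Ero1lb was -0.48, the 1 member of the 4 still lower in both. Ero1l, the other oxidase of this pair and not a member, was at 1.04 and 0.780 against 2.15 and 1.95 FPKM. Its log2 difference was 0.68 ± 0.22 (limma adjusted p = 0.314), the reverse of Ero1lb in direction. Its vehicle mean of 0.91 FPKM was under the filter of 1, so Ero1l passed only through the UAB126 libraries.

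The joint rows hold values that belong to no single gene. The row naming Mir704 and Pdia4 was at 166 and 165 against 104 and 97.3 FPKM (log2 difference -0.71 ± 0.21, limma adjusted p = 0.288). The row naming 2610318N02Rik and Sdf2l1, of which Sdf2l1 is part of the BiP chaperone complex, was at 53.3 and 51.4 against 34.4 and 30.6 FPKM (log2 difference -0.67 ± 0.19, adjusted p = 0.278). The row naming Calr, the soluble lectin chaperone calreticulin, and Mast1 was at 863 and 979 against 638 and 581 FPKM (log2 difference -0.59 ± 0.26, limma adjusted p = 0.390). In all 3 rows both UAB126 libraries were below both vehicle libraries, and after quantile normalization the differences were -0.39, -0.52 and, for the Calr row, whose groups then overlapped, -0.10.

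ER-associated degradation, which exports misfolded proteins to the proteasome, held both the largest difference and the widest spread of directions. Derl3, a channel protein of this pathway (chromosome 10, 75893413 to 75895941, plus strand, no overlapping gene), was at 8.80 and 9.60 against 2.04 and 2.37 FPKM. The groups were far apart relative to their spread, with each vehicle library above both UAB126 libraries. The log2 difference was -1.67 ± 0.18 (limma adjusted p = 0.0694), and it ran from -1.74 to -1.60 when any 1 library was left out. Adding 1 to each FPKM shrinks the difference of a gene at this level. With a pseudocount of 0.1 the log2 difference was -2.01. The limma adjusted p was 0.0104 without vehicle 1 and 0.0495 with a pseudocount of 0.1. It was 0.0558 without vehicle 2, 0.527 without UAB126 1, 0.572 without UAB126 2 and 0.249 with no filter on low values.

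The 2 other Derlin genes did not share that size. Derl2 was at 78.6 and 82.1 against 52.3 and 53.4 FPKM, close within each group and separate between them (log2 difference -0.60 ± 0.19, limma adjusted p = 0.314), and it overlaps Mis12 by 231 bases. Derl1 was at 41.8 and 41.0 against 46.1 and 50.1 FPKM, slightly above vehicle in both UAB126 libraries (log2 difference 0.21 ± 0.19). Herpud1, which organises the ligase complex at the ER membrane (chromosome 8, 94386438 to 94395377), was at 288 and 322 against 402 and 579 FPKM. Both UAB126 libraries exceeded both vehicle libraries, with a log2 difference of 0.66 ± 0.28 (limma adjusted p = 0.390) that was 0.40 without UAB126 2, 0.93 without UAB126 1 and 1.05 after quantile normalization. An antisense gene, Gm15890, overlaps Herpud1 by 535 bases, and the strand of the reads is not stated. Edem1, a mannosidase-like protein that marks glycoproteins for disposal, Sel1l, an adaptor, and Syvn1, the ubiquitin ligase HRD1, had overlapping groups and log2 differences of 0.02, -0.06 and -0.19.

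At the protein entry channel, 3 of 7 tested members were lower in both UAB126 libraries and 1 was higher. Among all tested genes the shares were 26.9% and 22.7%. Sec61b, a small subunit of the channel with the shortest transcript of the list (723 bases; chromosome 4, 47474658 to 47483242), was at 174 and 346 against 96.9 and 153 FPKM. The vehicle libraries differed by nearly as much as the groups did, so the log2 difference of -1.01 ± 0.42 did not pass (limma adjusted p = 0.386). It was -0.51 without vehicle 2, -0.68 without UAB126 1, -1.50 without vehicle 1 and -0.58 with the length trend removed. Spcs1 and Spcs2, subunits of signal peptidase, were at 65.97 and 79.0 against 51.1 and 54.3 FPKM and at 37.2 and 39.4 against 27.2 and 29.3 FPKM. Spcs2 kept a log2 difference of -0.36 with the length trend removed, against -0.43, whereas Spcs1 went from -0.45 to -0.10 (limma adjusted p = 0.392 and 0.410 before removal). The model of Spcs2 overlaps Xrra1 by 4347 bases and that of Spcs1 overlaps Glt8d1 by 273.

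Sec61a1, the pore-forming subunit, was at 68.0 and 54.2 against 73.3 and 75.4 FPKM, above vehicle in both UAB126 libraries (log2 difference 0.29 ± 0.22). Ssr1, Ssr2 and Ssr3, subunits of the translocon-associated TRAP complex, had overlapping groups and log2 differences of -0.03, -0.12 and -0.06. Sec61g, the other small subunit of the channel, was at 0.312 and 0.0746 FPKM in vehicle 1 and UAB126 1 and listed at 0 in the other two libraries. Its annotated transcript shares a stretch of 420 bases at 100% identity with the pseudogene Gm10177, so reads of Sec61g could have been placed elsewhere, and its row gives no usable level. In the coat that buds vesicles from the ER (COPII), Sec23b was at 35.5 and 30.2 against 25.7 and 25.8 FPKM, lower in both UAB126 libraries. Sec24d, a cargo adaptor, and Sar1b, the GTPase needed for lipoprotein export, had overlapping groups, at 21.7 and 12.9 against 25.3 and 20.3 FPKM and at 192 and 168 against 123 and 173 FPKM.

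**Figure D2:**
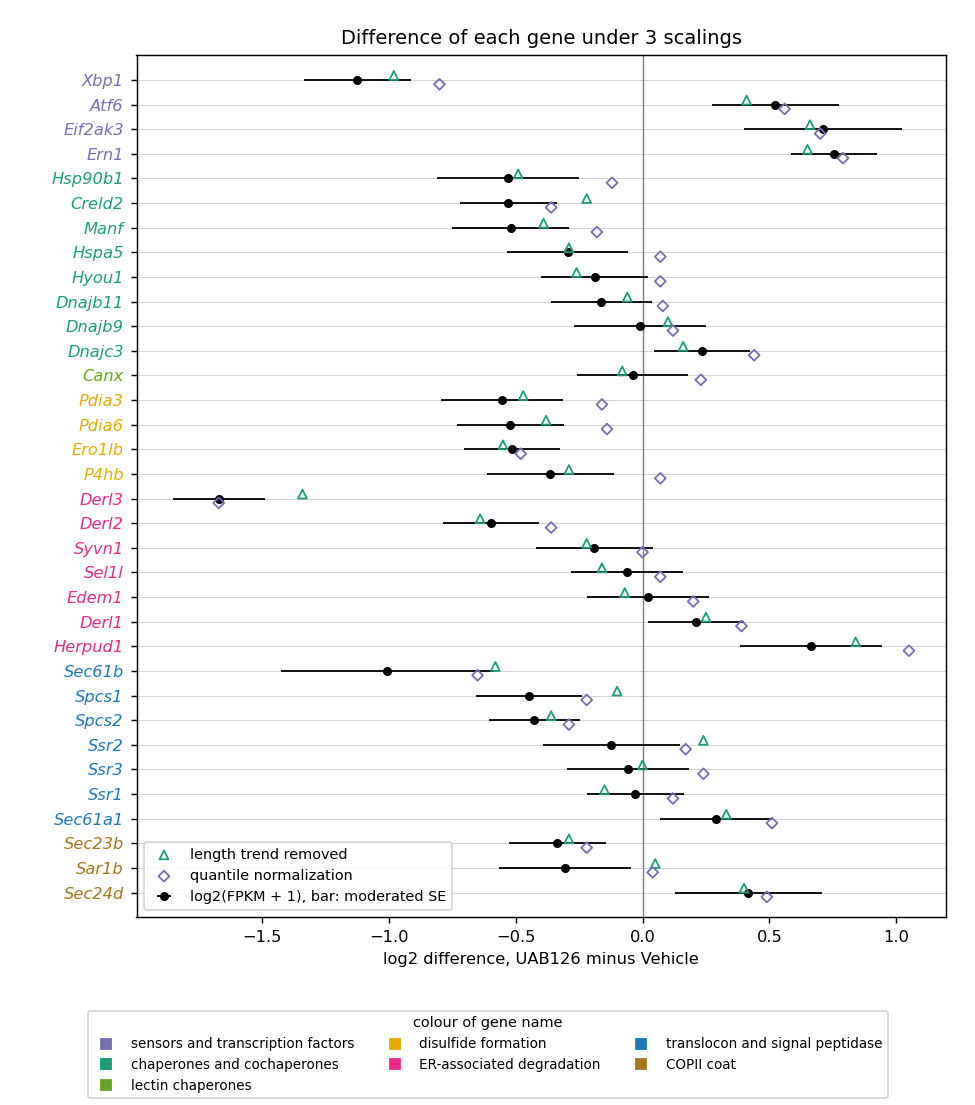
Log2 difference (UAB126 minus vehicle) of the 34 tested members, by role: black circles with limma's moderated SE for the log2(FPKM + 1) values, green triangles with the trend with transcript length removed and purple diamonds after quantile normalization. Xbp1 at -1.12 and Derl3 at -1.67 lie to the left of 0 and Ern1 at 0.75 to the right under all 3 scalings, while Hspa5 and P4hb move from left to right.

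Transcript length separated the libraries. Lengths were the longest annotated transcript of a gene (GENCODE M21), known for all 34 tested members. Among the 1029 tested genes with the shortest transcripts (up to 1311 bases), the median deviation from a gene's mean was 0.46 in vehicle 2 and -0.43 in UAB126 1, and near 0 in the other two (-0.03 in vehicle 1). Among the 1028 with the longest it was -0.12 in vehicle 2 and 0.15 in UAB126 1. The median difference between groups accordingly went from -0.42 in the shortest to 0.14 in the longest group.

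The 4 members in the shortest group were Sec61b, Ssr2, Sar1b and Spcs1, with a median difference of -0.38, beside -0.42 for all genes of that length. The 3 in the longest group were Ern1, Atf6 and Ssr1, with a median of 0.52, beside 0.14. Derl3 (1321 bases) stood at -1.67 where genes of its length had a median of -0.22, and Xbp1 (2129 bases) at -1.12 where the median was -0.15. With the trend removed, Derl3 was at -1.34 (limma adjusted p = 0.101), Xbp1 at -0.98 (adjusted p = 0.171) and Ern1 at 0.65 (adjusted p = 0.208). Of the 34 members, 15 were then lower in both UAB126 libraries and 8 higher, beside 23.5% and 27.3% of all genes so tested, and the members' median was -0.155. By library, the members' median deviation from the gene mean was then 0.183 in vehicle 1 and -0.005 in vehicle 2. It was -0.030 in UAB126 1 and -0.147 in UAB126 2, so vehicle 2 and UAB126 1 lay close together. At an unadjusted p under 0.05, 6 members were lower and 2 higher there, beside 7.79% and 7.45% of all genes. Sar1b and Ssr2, both short, were at 0.05 and 0.24 there, against -0.30 and -0.12 before. What made the libraries differ by length was not tested.

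**Figure D3:**
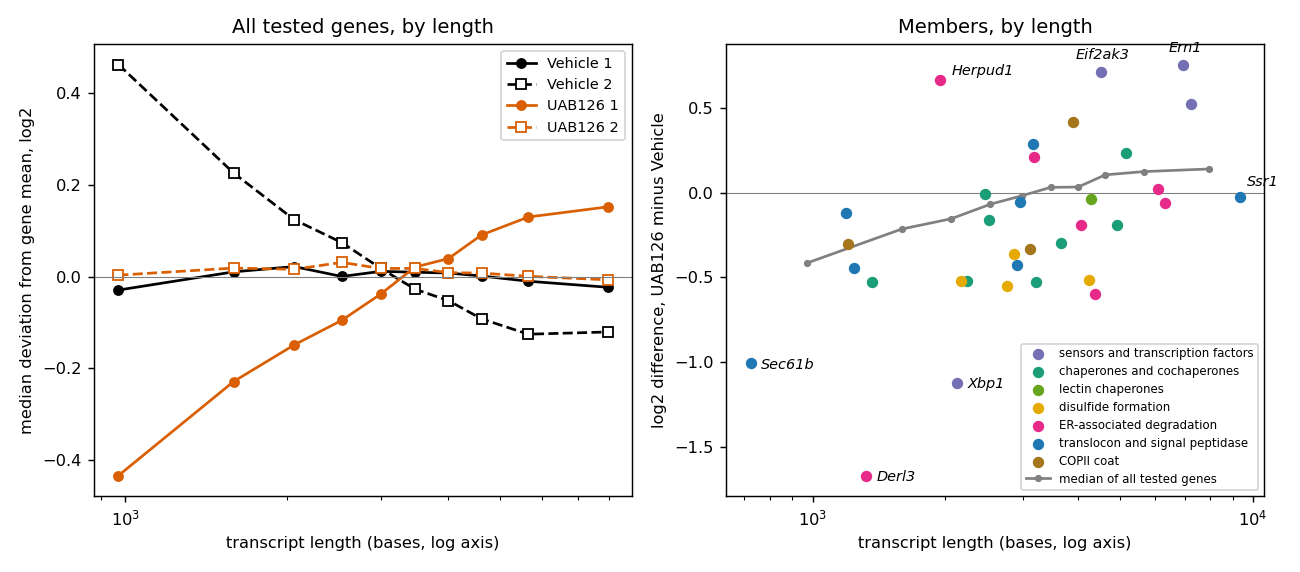
Left, how far each library stood from the gene means (median, log2 scale) in 10 groups of tested genes ordered by transcript length (bases, log axis). Right, log2 difference of each member against its transcript length, coloured by role, with the median of all tested genes in grey; Derl3 at -1.67, Xbp1 at -1.12 and Sec61b at -1.01 lie lowest and Ern1 at 0.75 highest.

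Expression level also moved with the difference. Among the 422 tested genes with a mean of at least 300 FPKM, the median log2 difference was -0.506 and 52.6% were lower in both UAB126 libraries. The 5 members at that level (Herpud1, Hsp90b1, Hspa5, P4hb and Pdia3) had a median of -0.363, and 4 were lower in both. Between 100 and 300 FPKM the median of 614 genes was -0.324 and 47.4% were lower in both, against -0.519 and 4 of 7 members (Manf, Pdia6, Sar1b, Sec61b, Ssr2, Ssr3 and Xbp1). From 30 to 100 FPKM, 6 of 14 members were lower in both, beside 34.9% of all genes, with medians of -0.112 and -0.159. At 300 FPKM and above, Hspa5, P4hb, Hsp90b1 and Pdia3, from -0.55 to -0.30, thus lay on both sides of the median of genes at their level. After quantile normalization, which removes such a shift, 8 members were lower in both UAB126 libraries and 7 higher, beside 22.9% and 25.6% of all tested genes, and the members' median was 0.069. Xbp1, Derl3 and Ern1 were at -0.80, -1.67 and 0.79 there.

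**Figure D4:**
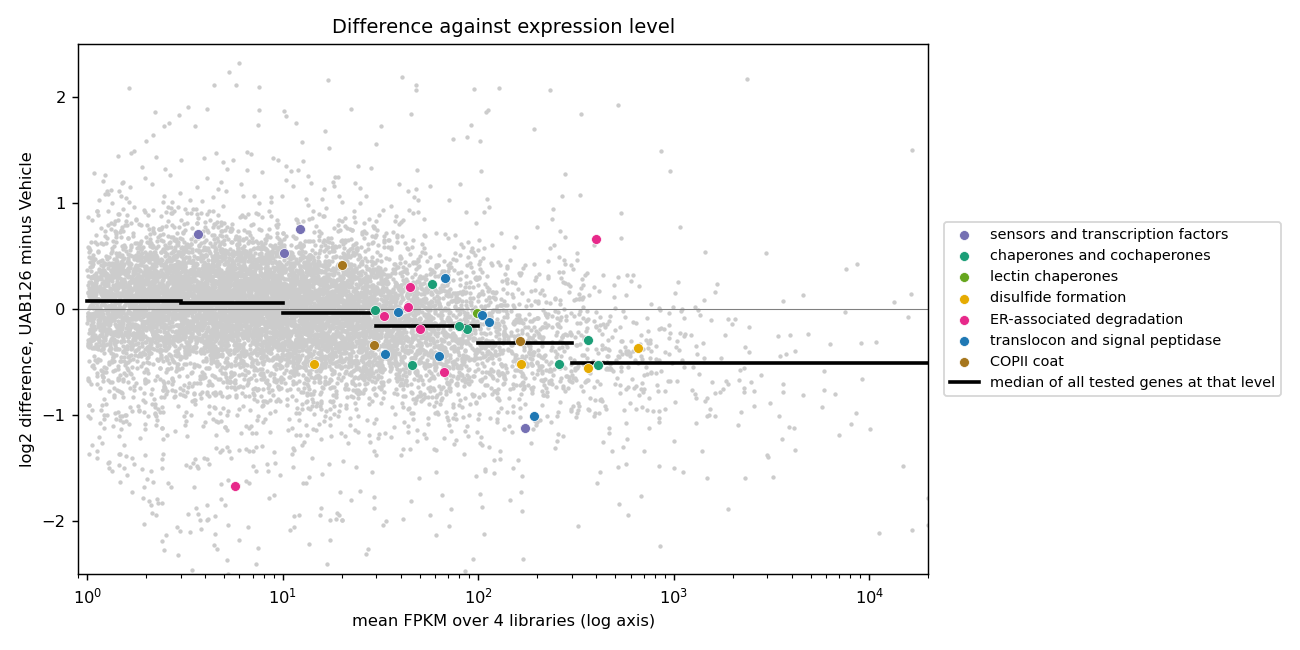
Log2 difference against mean FPKM over the 4 libraries (log axis) for all tested genes (grey) and the members (coloured by role), with black bars at the median of all tested genes in each range of level; 136 genes beyond the axes are not drawn. The bars step down from 0.072 at the lowest level to -0.506 at 300 FPKM and above, and most abundant members lie near them, apart from Herpud1 at 0.66, Xbp1 at -1.12 and Sec61b at -1.01.

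A further list of 74 genes of the same pathway (other isomerases, glycosylation and glycan trimming enzymes, degradation factors, channel and coat subunits) had 67 tested genes. None passed the threshold (limma), 3 were lower (4.48%) and 1 higher (1.49%) at an unadjusted p under 0.05, beside 8.38% and 5.03% of all tested genes. In both UAB126 libraries 26 were lower (38.8%) and 8 higher (11.9%), beside 26.9% and 22.7%. After quantile normalization 12 were lower (17.9%) and 13 higher (19.4%), beside 22.9% and 25.6% of all tested genes. Before that normalization the median log2 difference of the 67 genes was -0.122. Edem2, a mannosidase of ER-associated degradation, was at 57.2 and 59.3 against 27.9 and 32.3 FPKM (log2 difference -0.93 ± 0.19, limma adjusted p = 0.215). Sec24a, a COPII cargo adaptor, was at 154 and 167 against 73.5 and 108 FPKM, and Pdia5 at 79.2 and 164 against 43.6 and 63.4 FPKM. The fourth gene named by rule was Ero1l, given above. It was also the 1 gene higher at an unadjusted p under 0.05 (limma).

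A list of genes downstream of ATF4, the arm driven by PERK and other kinases, showed other counts. It also held Atf4 itself, higher in both UAB126 libraries, at 92.1 and 87.3 against 96.9 and 126 FPKM. Of 26 listed, 20 were tested; 2 passed the threshold as higher (Fgf21 and Nupr1), beside 0.0464% of all tested genes, 11 were higher at an unadjusted p under 0.05, beside 5.03%, and 14 were higher in both UAB126 libraries, beside 22.7%, while none was lower in both. The number passing was 0 without UAB126 1, without UAB126 2 and with no filter on low values, 6 without vehicle 1 and 4 without vehicle 2. Psat1 and Mthfd2, with vehicle means of 0.772 and 0.751 FPKM, passed the filter only through the UAB126 libraries, where they were higher. With no filter, 24 were tested, and 12 were higher at an unadjusted p under 0.05 (limma), beside 4.74% of all genes. Of these 24, 15 were higher in both UAB126 libraries, beside 22.05%, and the median was 0.71. With the filter, the median log2 difference of the ATF4 targets was 1.056. It was -0.189 for the ER chaperone and secretory members and 0.618 for the 4 sensor and transcription factor genes. The difference between these lists was not tested, and both come from the same 4 libraries. The lists were chosen with earlier results of these data known, so the shares given here are not independent of that choice.

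**Figure D5:**
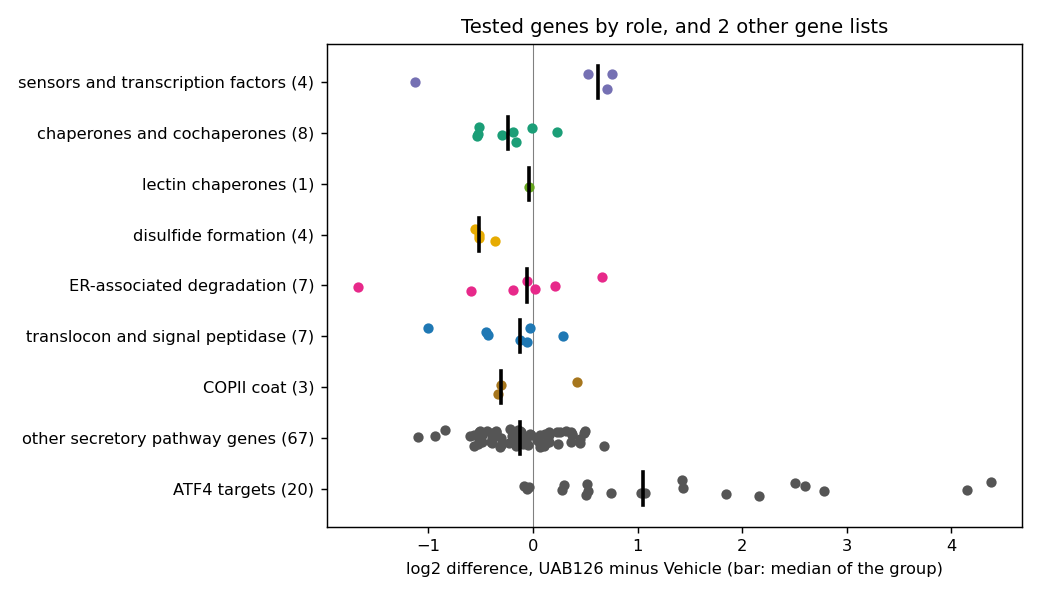
Log2 difference (UAB126 minus vehicle) of each tested gene by role, with the number of genes in parentheses and a bar at the median, beside other secretory pathway genes and ATF4 targets. The disulfide formation genes lie between -0.55 and -0.36, the degradation genes between -1.67 and 0.66, and ATF4 targets between -0.09 and 4.38.

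In whole liver, fewer cells of a type and less RNA per cell cannot be told apart. The 11 hepatocyte markers were present, with 6 lower and 1 higher in both UAB126 libraries, beside 26.9% and 22.7% of all tested genes. At 300 FPKM or more, where most of these markers lie, 52.6% of all tested genes were lower in both. The summed FPKM of the markers was 81424 to 145985 in vehicle and 48504 to 64688 with UAB126. This sum includes Alb, listed at 0 in all but vehicle 2. The part of hepatocyte content in the lower chaperone values was not tested. Plasma cells, which express Xbp1 and Derl3 strongly, left little trace: of their 8 markers 6 had a row and none was high enough to be tested, Tnfrsf17 was at 0 in every library, and the highest value was 1.41 FPKM. Summed levels of plasma cell markers were 1.80 to 2.32 FPKM in vehicle and 2.32 to 3.87 FPKM with UAB126. Of 11 pancreatic acinar markers, Cela3b, Cpb1, Pnlip and Cel were at 0 in every library, and Cela1 made up most of the summed 74.6 to 124 FPKM in vehicle and 49.0 to 55.3 FPKM with UAB126. Kupffer cell markers summed to 71.7 to 209 FPKM in vehicle and 166 to 206 FPKM with UAB126, stellate cell markers to 132 to 167 and 145 to 149 FPKM, and endothelial markers to 52.9 to 90.05 and 82.1 to 98.4 FPKM.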

How the data were processed

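Polyadenylated RNA from frozen liver was sequenced from both ends (75 bases), per the labels' protocols. Reads were handled with Cuffdiff, Cufflinks 2.2.1, STAR 2.5.1b and Trim Galore 0.4.1 on mm10, per the submitters' processing notes; annotation and settings: not given in the sources used here. The authors deposited 1 table of FPKM values with 27216 rows, of which 3634 without a symbol were left out. Same-symbol rows were summed (1302 rows of 569 symbols).

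FPKM are not counts, so log2(FPKM + 1) was fitted for 10786 symbols (mean FPKM 1 or more) with limma 3.58.1 in R 4.3.3 (intensity trend, group only, two-sided, Benjamini-Hochberg over all of them). Of 5.35 degrees of freedom, 3.35 come from other genes. The fit was tested on simulated data. With 2 libraries a group, no exact permutation test reaches 0.05. Adjusted p, log2 differences and medians were computed here, with Python 3.11.15, pandas 2.3.3 and numpy 2.4.6.

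Relative depth, from the most frequent ratio of values under 0.3 FPKM, was 0.691, 0.404, 1 and 0.703 in vehicle 1, vehicle 2, UAB126 1 and UAB126 2; absolute depth is unknown, and vehicle 2 is the least precise for low genes. Positions and lengths are from GENCODE M21, and 99.5% of 21418 single positions overlapped the deposited locus. Alternatives covered the pseudocount, filter, scaling, length, prior, replicate block, left-out libraries and doubtful rows. Full values went by rule to Xbp1, Ern1, Eif2ak3, Atf6, Hspa5 and to members with the smallest p and separate groups, up to 16. In each comparison list, up to 4 genes with the smallest p were named. Members, lists and rule were chosen with earlier results of these data known.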

Additional observations from a re-analysis of the deposited data

How the results depend on the processing

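Of the 34 tested members, 13 changed sign under at least 1 of 13 alternatives (Hspa5, Hyou1, Dnajb9, Dnajb11, Canx, P4hb, Edem1, Sel1l, Syvn1, Ssr1, Ssr2, Ssr3 and Sar1b) and 21 kept theirs; Hspa5 turned to 0.07 with quantile normalization. With that normalization the members' median turned from -0.189 to 0.069, members lower in both UAB126 libraries went from 17 to 8, and members at an unadjusted p under 0.05 were 2 lower and 2 higher, against 5 and 1 (all genes 6.95% and 6.20%). That count was 9 lower with no filter on low values (all genes 5.92%) and 8 lower with no intensity trend (8.61%). It was 2 higher with median centring (all genes 5.06%), with the length trend removed (7.45%) and with no intensity trend (4.75%). The number of members past the threshold, 0 in the fit reported, was 1 with a pseudocount of 0.1 (Derl3). Over all genes, 15 passed (5 higher, 10 lower), against 27 (12 higher) with a pseudocount of 0.1, 24 (12 higher) with quantile normalization, 23 (9 higher) with median centring, 9 higher with the length trend removed, 3 higher with no intensity trend, 8 higher without doubtful rows (a 0 beside a value above 20 FPKM) and 0 (0 higher, 0 lower) with no filter.

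With the replicate number as a block, 148 genes passed (38 higher, 110 lower), among them 2 members, Derl3 (adjusted p = 0.0405) and Xbp1 (adjusted p = 0.0498), and 7 ATF4 targets, and 11 members were lower and 4 higher at an unadjusted p under 0.05, beside 16.1% and 7.34% of all genes. The labels do not say that a number pairs libraries. Deviations of the replicate 1 libraries from their group means correlated across genes at 0.178, and there are only 2 pairs, so the block is not used as a result.

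Leaving out 1 library gave 0 to 442 genes past the threshold, the highest without vehicle 1 and 0 without UAB126 2, with 56 without vehicle 2 and 14 without UAB126 1 (0 to 108 higher and 0 to 334 lower). Members past it were 0 to 1 (Derl3 without vehicle 1). At an unadjusted p under 0.05 (limma), fewer members were lower and as many or more were higher than with all libraries, whichever was left out. The share of all genes at that p also changed with the library left out. Members lower in both were 18 to 24, and 7 to 13 were higher in both, the latter without vehicle 1; with fewer libraries the groups separate more often, in 34.5% to 44.3% and 33.8% to 37.7% of all genes. The members' median was -0.289 (without vehicle 2) to -0.183. With a filter at a mean of 5 FPKM, Eif2ak3 was not tested. Vehicle 2 was the shallowest library, so low members such as Derl3, Eif2ak3 and Sec61g are least precise there. The lone library of a group is assumed, when another is left out, to vary like the other group.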
